A study of Homo sapiens with 9 samples.

Results

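Integrins are the receptors by which cells hold on to the extracellular matrix. The data describe the messenger RNA of 10 integrin subunit genes in OVCAR5, an established line of human ovarian cancer cells, out of 60649 genes in the count table. The genes were chosen by name, but with earlier results of these data known. All 10 were among the 19674 genes with enough counts to be tested. They comprise 5 alpha subunits (ITGA2, ITGA3, ITGA5, ITGA6 and ITGAV) and 5 beta subunits (ITGB1, ITGB4, ITGB5, ITGB6 and ITGB8). The libraries fell into 3 groups of 3, titled NC, SM2 and SM4. The labels give lentivirus and puromycin for every library, so the groups are described as stable pools, although NC is also called parental. The submitters describe NC as the control, given as a hairpin control in the study's methods, and SM2 and SM4 as knockdowns of METTL3, the catalytic subunit of the enzyme that places N6-methyladenosine (m6A) on RNA. The labels name no short hairpin RNA for SM2 or SM4 and do not say whether the libraries of a group came from separate cultures, so that p-values measure the spread between these libraries.

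An integrin is a pair of one alpha and one beta chain, and the alpha chain cannot reach the cell surface alone. ITGB1 pairs with many alpha chains and makes receptors for collagen (with ITGA2), laminin (with ITGA3 or ITGA6) and fibronectin (with ITGA5). ITGB4 pairs with ITGA6 only, and that receptor anchors epithelial cells to laminin in hemidesmosomes. ITGAV pairs with ITGB1, ITGB5, ITGB6 or ITGB8 to make receptors for RGD-containing proteins such as fibronectin and vitronectin, and the pairs with ITGB6 and ITGB8 are known for releasing active TGF-beta from its latent form. Ovarian cancer cells spread across the matrix-covered lining of the abdomen, where these receptors are widely studied.

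METTL3 went against the labels. Levels are in CPM, the count scaled to the library total. METTL3 was at 35.8 ± 1.19 CPM (SD, n = 3) in NC, 38.9 ± 1.64 in SM2 and 60.2 ± 2.48 in SM4. In edgeR's quasi-likelihood test its SM2 libraries differed from NC by 0.12 on the log2 scale (SE 0.0549, adjusted p 0.12) and its SM4 libraries by 0.75 (SE 0.0539, adjusted p 2.21e-09), so the transcript was not lower in either group. SM4 also exceeded SM2 by 0.63 (adjusted p 7.46e-08), and SM4 was thus the group with the most METTL3. Which group served as the control is therefore in doubt. Below, NC, SM2 and SM4 mean the libraries with those labels, "rose" and "fell" are relative to the NC libraries, and no direction is to be read as an effect of METTL3 loss. With SM4 as the reference every sign of SM4 against NC and of SM4 against SM2 turns. ADAM23, an integrin-binding membrane protein that the study followed, was at 6.59 ± 0.497 CPM in NC, 4.44 ± 0.161 in SM2 and 2.54 ± 0.688 in SM4, lower than NC in both (adjusted p 0.00765 and 1.07e-06) and lower in SM4 than in SM2 (adjusted p 0.00131), so that the group with the most METTL3 held the least ADAM23. The study reports lower METTL3 and higher ADAM23 in both knockdowns than in its hairpin control. NC and SM2 both showed those signs against SM4, whereas SM2 and SM4 did not show them against NC. By these 2 genes SM4, and not NC, behaved like the study's control, although the labels give SM4 as a knockdown. The cell line field names OVCAR5 for all 9 libraries, but the source field gives other OVCAR numbers to those titled SM4. Totals were 44103272 to 63693728 counts a library, so that 1 CPM stood for about 44.1 to 63.7 counts before the TMM factor. SM2 replicate 3 stood apart, with a chi-square per degree of freedom of 13.4 and 16.0 against its group, where the other replicate pairs gave 4.14 to 6.00. All 6 epithelial markers fixed for the check of the cell type were tested and abundant, from 292.9 CPM for CLDN4 upward. The fibroblast markers (4, of which 1 was tested) lay below 0.40 CPM and none of the 3 leukocyte markers was tested. Of the 3 endothelial markers KDR had 0 counts and CDH5 stayed below 0.21 CPM, but PECAM1 rose from 5.48 ± 0.207 to 8.23 ± 0.640 and 13.7 ± 1.14 CPM, and its part in the integrin results was not tested.

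ITGB5, ITGB6 and ITGB8, 3 beta chains that share ITGAV as their partner, rose in both comparisons with NC, which use the same NC libraries. So did ITGB4, which does not pair with ITGAV. In SM4 against SM2 ITGB8 was lower, and ITGB5 and ITGB6 were not called. With SM4 as the reference, the subunits called in the same direction in both NC and SM2 were instead ITGA2, ITGA3 and ITGB4, all lower. The promoter windows of the 3 ITGAV partners are shown first. The sequences below are the 250 bases before the transcription start in RefSeq's promoter table (GRCh38.p14), read on the gene's own strand from 5′ to 3′. Capitals mark matches to GGGCGG or its reverse complement CCGCCC, the GC box bound by Sp1-family factors. ITGB5 lies at chr3:124887366-124887615 on the minus strand, ITGB6 at chr2:160200273-160200522 on the minus strand and ITGB8 at chr7:20330650-20330899 on the plus strand.

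ITGB5: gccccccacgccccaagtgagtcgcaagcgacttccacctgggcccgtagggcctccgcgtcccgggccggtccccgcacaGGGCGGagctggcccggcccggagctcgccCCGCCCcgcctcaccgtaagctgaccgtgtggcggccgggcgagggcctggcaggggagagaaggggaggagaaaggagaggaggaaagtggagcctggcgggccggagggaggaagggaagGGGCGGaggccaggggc
ITGB6: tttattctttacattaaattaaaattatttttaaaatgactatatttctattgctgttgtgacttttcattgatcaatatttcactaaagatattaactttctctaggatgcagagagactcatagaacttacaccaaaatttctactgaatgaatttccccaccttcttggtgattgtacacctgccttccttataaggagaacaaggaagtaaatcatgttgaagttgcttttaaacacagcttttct
ITGB8: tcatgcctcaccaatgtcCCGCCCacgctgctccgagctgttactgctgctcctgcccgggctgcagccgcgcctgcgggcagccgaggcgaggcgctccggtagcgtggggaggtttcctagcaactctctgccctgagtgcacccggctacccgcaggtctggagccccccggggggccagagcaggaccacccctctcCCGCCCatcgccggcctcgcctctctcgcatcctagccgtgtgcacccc

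The windows had little in common. ITGB5 held 3 GC boxes in 75.2% G or C and ITGB8 held 2 in 71.2%, while ITGB6 held none in 30.0%, against a median of 62.0% over 19096 promoters. The GC box occurred in 53.9% of those promoters. The windows of ITGA2, ITGA5, ITGA6, ITGAV and ITGB1 held 4, 1, 3, 0 and 3 GC boxes, in 70.0% to 78.4% G or C. The AP-1 site TGACTCA (3.58% of promoters), the CRE site TGACGTCA (2.29%) and the TATA motif TATAAA (9.5%), searched on both strands, were absent from all 8 windows that had an entry. A match describes letters in a window and is not a binding site. ITGA3 and ITGB4 had no entry in the table.

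In the comparisons with NC most of the calls fell on beta chains. In SM2 against NC 7 of the 10 subunits were called at an adjusted p below 0.05, 5 higher and 2 lower, where 22.3% of all tested genes were called (12.0% higher and 10.3% lower). In SM4 against NC 6 of 10 were called, all 6 higher, against 21.2% of all genes (11.0% higher and 10.2% lower). In SM4 against SM2 6 of 10 were called, 4 higher and 2 lower, against 12.8% of all genes (6.04% higher and 6.76% lower). Read with SM4 as the reference, 6 subunits were lower in NC, and in SM2 4 were lower and 2 higher. Abundant genes were called more often, at 33.5%, 32.4% and 21.3% in the 3 comparisons among the 6610 genes at or above the mean of the lowest subunit (31.3 CPM). All 5 beta chains were called in SM2 against NC and 4 of them in SM4 against NC, while 2 of the 5 alpha chains were called in each. SM4 against SM2 showed the reverse, with 4 of the 5 alpha chains and 2 of the 5 beta chains called. The median log2 fold change of the 10 subunits was 0.13, 0.26 and 0.13 in the 3 comparisons, where the median of all genes was within 0.004 of 0. Both comparisons with NC share the NC libraries. The widest change against NC was 52.7%, and in bulk RNA fewer expressing cells and less RNA per cell cannot be told apart.

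**Figure D1:**
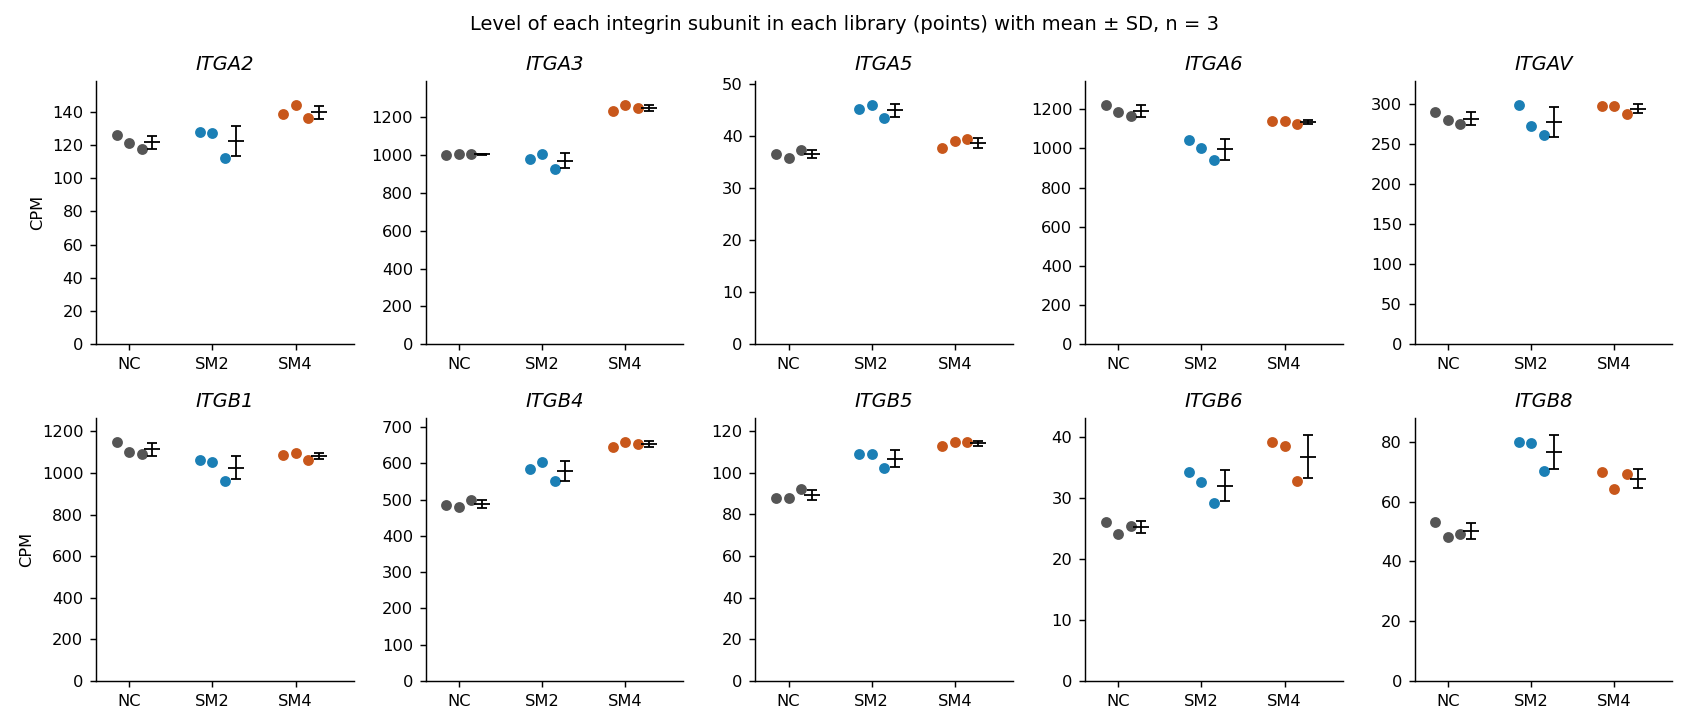
Level of each integrin subunit in CPM (vertical axes from 0) in the 9 libraries, by group; points are libraries and the black marks are mean ± SD, n = 3. All 6 libraries labelled SM2 or SM4 lie above the 3 labelled NC for ITGB4, ITGB5, ITGB6 and ITGB8, and also for ITGA5, which was not called in SM4 against NC. The 3 groups overlap for ITGAV.

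ITGB8 (ENSG00000105855.10, chromosome 7, 20330702 to 20415754, GRCh38) changed most of the 10 in SM2 against NC, whereas ITGB6 did in SM4 against NC and ITGA3 in SM4 against SM2. It was at 53.2, 48.2 and 49.2 CPM in the NC libraries, 80.1, 79.7 and 70.1 in SM2, and 70.0, 64.1 and 69.1 in SM4. Every SM2 and SM4 library lay above every NC library, and the lowest SM2 library lay just above the highest SM4 library. Against NC, SM2 was higher by 0.61 on the log2 scale (SE 0.0589, adjusted p 1.84e-07) and SM4 by 0.43 (SE 0.0587, adjusted p 1.35e-05). In SM4 against SM2 it was -0.18 (adjusted p 0.0474), a call lost under 12 of 19 alternatives. Without SM2 replicate 3, the lowest of its group, the rise in SM2 was 0.68 and the difference between SM4 and SM2 was -0.24 (adjusted p 0.00101).

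ITGB6 (ENSG00000115221.12, chromosome 2, 160099667 to 160200313), a beta chain largely restricted to epithelia, was the least abundant subunit by CPM. The NC libraries held 26.01, 24.1 and 25.4 CPM, the SM2 libraries 34.2, 32.5 and 29.2, and the SM4 libraries 39.2, 38.4 and 32.7. Both groups lay wholly above NC and overlapped each other. The rise over NC was 0.34 on the log2 scale for SM2 (SE 0.0734, adjusted p 0.00154) and 0.55 for SM4 (SE 0.0725, adjusted p 9.72e-06), whereas SM4 against SM2 gave 0.20 (adjusted p 0.0701). Of its exon bases 16.7% lie within an unnamed lncRNA (ENSG00000285155) on the same strand, and how reads there were counted is not given in the sources used here. The other 9 subunits shared at most 2.75% with any gene.

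ITGB5 (ENSG00000082781.12, chromosome 3, 124761948 to 124901418), the vitronectin receptor chain, was at 87.9, 87.6 and 92.0 CPM in NC, 109 CPM in SM2 replicates 1 and 2, 102 in SM2 replicate 3, and 113, 115 and 115 in SM4. The groups did not overlap, and SM4 lay slightly above SM2. SM2 was higher than NC by 0.26 (SE 0.0446, adjusted p 0.000213) and SM4 by 0.35 (SE 0.0444, adjusted p 4.97e-06) on the log2 scale, and the step from SM2 to SM4 was 0.10 (adjusted p 0.178).

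ITGAV (ENSG00000138448.12, chromosome 2, 186590010 to 186680901), the shared partner of these beta chains, was not called in any comparison. It was at 291, 280 and 275 CPM in NC, 299, 273 and 262 in SM2, and 298, 298 and 289 in SM4. All groups overlapped. On the log2 scale SM2 differed from NC by -0.02 (SE 0.0471, adjusted p 0.809), SM4 from NC by 0.06 (SE 0.0470, adjusted p 0.403) and SM4 from SM2 by 0.08 (SE 0.0470, adjusted p 0.28). A missed threshold does not show that the level was equal.

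The laminin receptor ITGA6-ITGB4 moved in opposite directions in SM2. ITGB4 (ENSG00000132470.14, chromosome 17, 75721328 to 75757818), whose long cytoplasmic tail binds plectin, was at 486, 479 and 499.7 CPM in NC, 583, 603 and 550.1 in SM2, and 644, 659.5 and 654 in SM4. The 3 groups formed 3 separate steps with no overlap. The first step, from NC to SM2, was 0.25 on the log2 scale (SE 0.0409, adjusted p 0.000148), the step from SM2 to SM4 was 0.17 (SE 0.0409, adjusted p 0.00647), and SM4 exceeded NC by 0.42 (SE 0.0409, adjusted p 1.76e-07).

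ITGA6 (ENSG00000091409.16, chromosome 2, 172427354 to 172506459) was at 1222, 1186 and 1163 CPM in NC, 1045, 1004 and 939 in SM2, and 1140.1, 1139.8 and 1122 in SM4. SM2 was lowest, and SM4 lay between SM2 and NC without touching either. It fell by 0.26 on the log2 scale in SM2 (SE 0.0411, adjusted p 9.48e-05). SM4 gave -0.07 (SE 0.0410, adjusted p 0.265), and SM4 against SM2 gave 0.19 (SE 0.0410, adjusted p 0.00362).

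**Figure D2:**
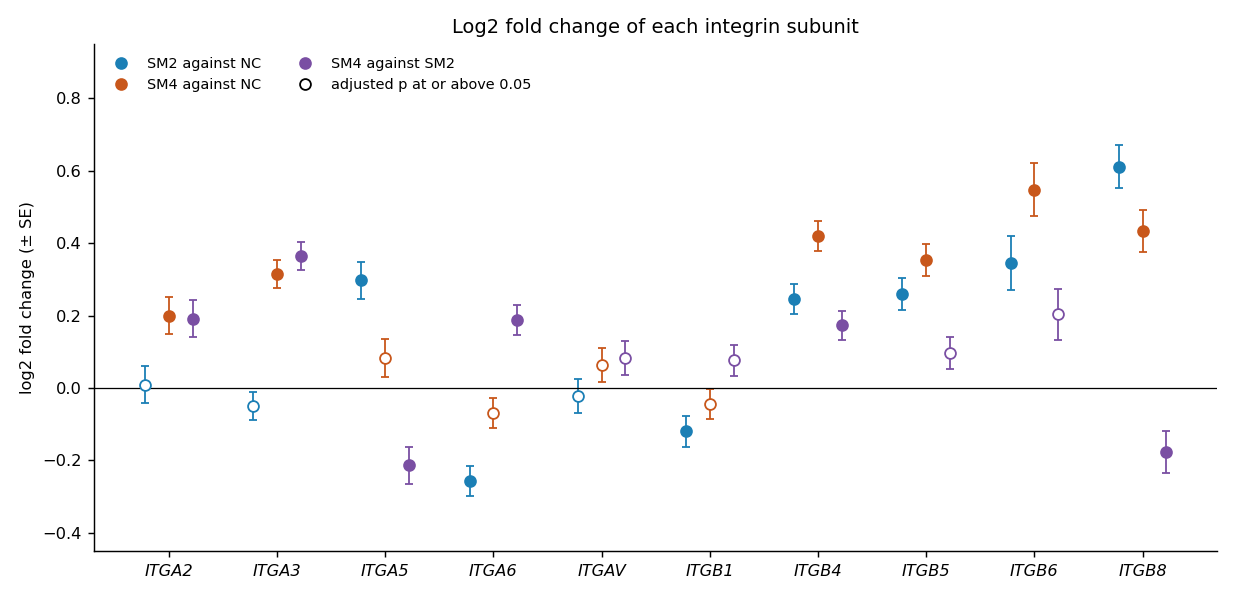
Log2 fold change with its SE from edgeR for each subunit in the 3 comparisons between groups; filled points have an adjusted p below 0.05 and open points do not. ITGB4, ITGB5, ITGB6 and ITGB8 are called above 0 in both comparisons with NC, and ITGAV lies near 0 in all 3. ITGA2 and ITGA5 also lie above 0 in both, each called in only 1 of them.

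ITGB1 and its collagen, laminin and fibronectin partners showed no shared direction. ITGB1 (ENSG00000150093.20, chromosome 10, 32887273 to 33005792), the most widely shared beta chain, was at 1151, 1101 and 1092 CPM in NC, 1064, 1052 and 962 in SM2, and 1087, 1095 and 1063 in SM4. SM2 lay below NC, and SM4 overlapped both. The fall of 0.12 on the log2 scale in SM2 (SE 0.0418, adjusted p 0.0446) was called, but the call was lost under 15 of 19 alternatives, and without SM2 replicate 3 the value was -0.07 (adjusted p 0.165). SM4 against NC gave -0.04 (adjusted p 0.535).

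ITGA3 (ENSG00000005884.18, chromosome 17, 50055968 to 50090481), the alpha chain of a laminin receptor, moved in SM4 alone among the comparisons with NC. It was at 1003.5, 1005.5 and 1006 CPM in NC, 980.4, 1005.5 and 926 in SM2, and 1232.5, 1266 and 1249 in SM4. The SM4 libraries stood apart from all 6 others. SM4 exceeded NC by 0.31 on the log2 scale (SE 0.0381, adjusted p 3.4e-06), SM2 gave -0.05 (SE 0.0381, adjusted p 0.398), and the difference between SM4 and SM2 was itself called (0.36, SE 0.0382, adjusted p 1.02e-06).

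ITGA2 (ENSG00000164171.11, chromosome 5, 52989340 to 53094779), the collagen receptor chain, was likewise highest in SM4. It was at 126, 121 and 118 CPM in NC, 128, 127 and 112 in SM2, and 139, 144 and 136 in SM4. SM4 again lay above the other groups, which overlapped. It rose by 0.20 (SE 0.0513, adjusted p 0.00712) in SM4, with 0.01 (adjusted p 0.931) in SM2 and 0.19 (adjusted p 0.0159) in SM4 against SM2.

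ITGA5 (ENSG00000161638.11, chromosome 12, 54395261 to 54419266), the fibronectin receptor chain, was instead highest in SM2. It was at 36.6, 35.9 and 37.3 CPM in NC, 45.3, 46.1 and 43.6 in SM2, and 37.7, 39.1 and 39.6 in SM4. SM2 stood above both other groups. It rose by 0.30 (SE 0.0516, adjusted p 0.000229) in SM2, with 0.08 (SE 0.0515, adjusted p 0.297) in SM4, and SM4 was lower than SM2 by a log2 fold change of -0.21 (SE 0.0512, adjusted p 0.00721).

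Because the depth of a library cancels in a ratio of 2 genes, the likely pairs were compared within each library as the alpha level over the beta level, each in CPM per kilobase of annotated exon. The level of such a ratio depends on the length given to each gene, but its change between groups does not. With 3 libraries against 3 the exact two-sided permutation test cannot give a p below 0.1, so no pair could pass 0.05, and over the 27 tests the smallest adjusted p was 0.117.

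The ITGA6 to ITGB4 ratio moved furthest among the laminin receptors. It was 2.55, 2.51 and 2.36 in NC, 1.81, 1.68 and 1.73 in SM2, and 1.79, 1.75 and 1.74 in SM4. Both groups lay below NC (exact permutation p 0.1 each) and overlapped each other (exact permutation p 0.7). The ratio reached this level by different routes, with ITGB4 higher and ITGA6 lower in SM2, and ITGB4 higher with ITGA6 not called in SM4.

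Each ITGAV ratio with ITGB5, ITGB6 or ITGB8 was lower than in NC. ITGAV to ITGB8 was 4.29, 4.55 and 4.38 in NC, 2.93, 2.68 and 2.93 in SM2, and 3.33, 3.64 and 3.27 in SM4, and the groups did not overlap. ITGAV to ITGB6 went from a mean of 3.36 ± 0.120 in NC to 2.60 ± 0.0920 in SM2 and 2.41 ± 0.201 in SM4. ITGAV to ITGB5 went from 1.07 ± 0.0551 to 0.878 ± 0.0436 and 0.871 ± 0.0215. Added together, the 3 beta chains amounted to 1.46 ± 0.0567 times the ITGAV level in NC, 1.88 ± 0.0791 in SM2 and 1.86 ± 0.00752 in SM4 (SD, n = 3). With the length of the canonical transcript in place of the union of exons these were 0.776, 1.00 and 0.983, so whether ITGAV or its beta partners were in excess depended on the length, and the relative rise did not.

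The ratios with ITGB1 differed by partner. ITGA3 to ITGB1 was 1.30, 1.36 and 1.37 in NC, 1.37, 1.42 and 1.43 in SM2 and 1.69, 1.72 and 1.75 in SM4, and SM4 lay well above both. ITGA5 to ITGB1 was highest in SM2, at 0.0866 ± 0.00268 against 0.0648 ± 0.00231 in NC and 0.0708 ± 0.00254 in SM4. ITGA2 to ITGB1 went from 0.201 ± 0.00215 to 0.220 ± 0.00441 and 0.238 ± 0.00411. ITGA6 to ITGB1 was 2.33 ± 0.0178 in NC, 2.12 ± 0.0322 in SM2 and 2.29 ± 0.0154 in SM4, and ITGAV to ITGB1 was 0.191 ± 0.00107, 0.204 ± 0.00851 and 0.205 ± 0.000937.

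**Figure D3:**
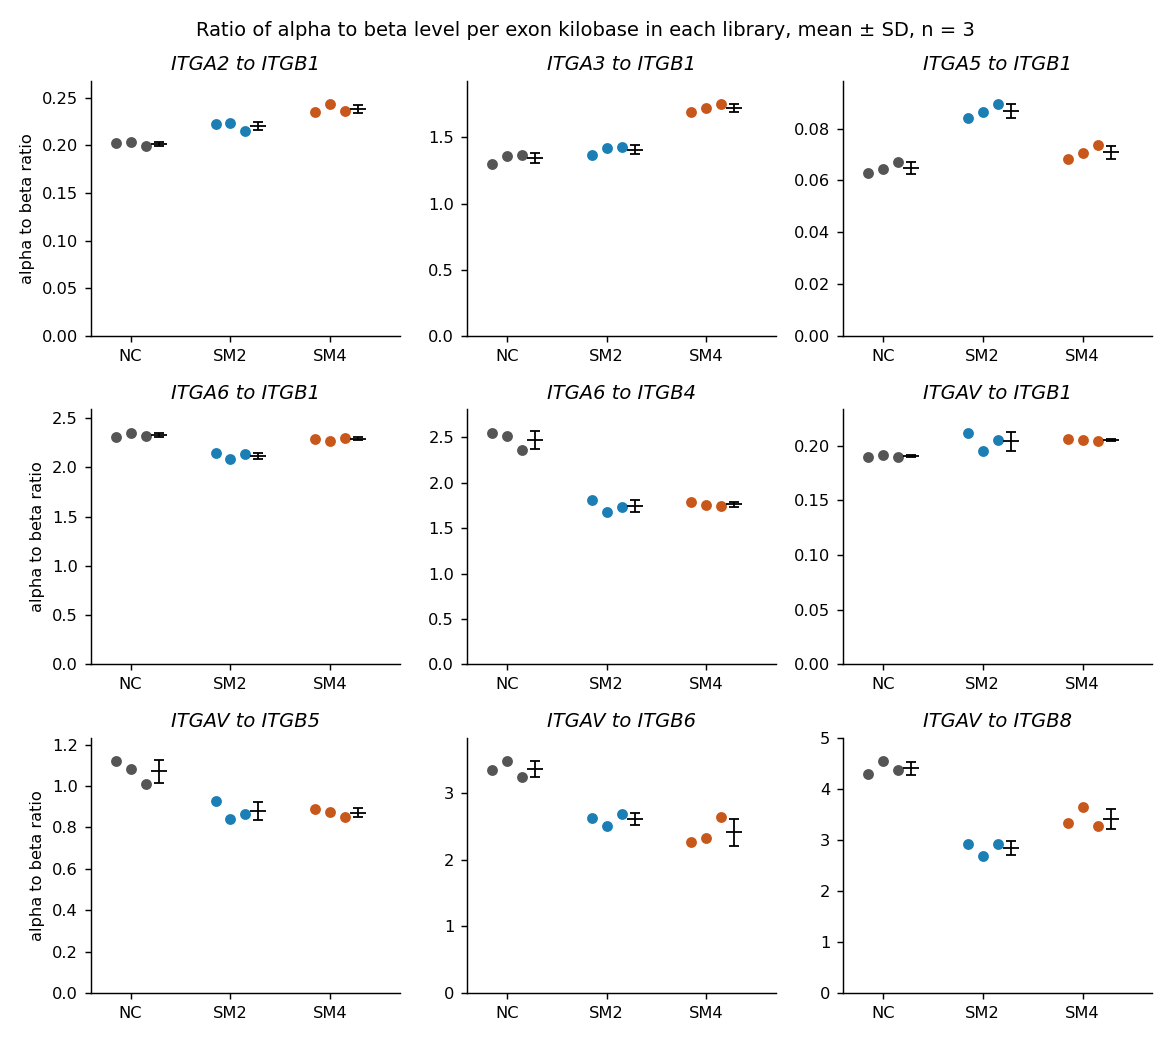
Alpha to beta ratio of the level per exon kilobase (vertical axes from 0) for 9 likely pairs in each library, by group, with mean ± SD, n = 3. The ratios of ITGA6 to ITGB4 and of ITGAV to ITGB5, ITGB6 and ITGB8 are lower in SM2 and SM4 than in NC, and ITGA3 to ITGB1 is highest in SM4.

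Compared per length, 4 subunits made up most of the integrin RNA. In CPM per kilobase of annotated exon, ITGA6 was at 178.2 ± 4.45, ITGA3 at 102.5 ± 0.134, ITGB1 at 76.6 ± 2.17 and ITGB4 at 72.2 ± 1.57 in NC. ITGA2 (15.4 ± 0.527), ITGAV (14.6 ± 0.423) and ITGB5 (13.7 ± 0.377) followed. ITGA5 (4.96 ± 0.0932), ITGB6 (4.35 ± 0.169) and ITGB8 (3.31 ± 0.172) were lowest. Of the neighbours in this order ITGA2 and ITGAV overlapped between the NC libraries, and the others did not. The order changed with the length used. Per kilobase of the canonical transcript ITGB1 came first at 298.4, ahead of ITGA3 (205.6) and ITGA6 (204.6), because its annotated exons add up to 14561 bases and its canonical transcript to 3735. On that scale ITGAV (40.1) and ITGB5 (20.1) also passed ITGA2 (15.5), and ITGB8 (5.59) lay just above ITGB6 (5.42).

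In shares of the summed level per exon kilobase, ITGA6 went from 36.7% ± 0.470 in NC to 31.9% ± 0.543 in SM2 and 31.8% ± 0.226 in SM4. ITGB4 went from 14.9% ± 0.423 to 18.3% ± 0.376 and 18.1% ± 0.180. With canonical lengths the same shares were 23.1%, 20.2% and 20.3% for ITGA6 and 9.34%, 11.6% and 11.5% for ITGB4.

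**Figure D4:**
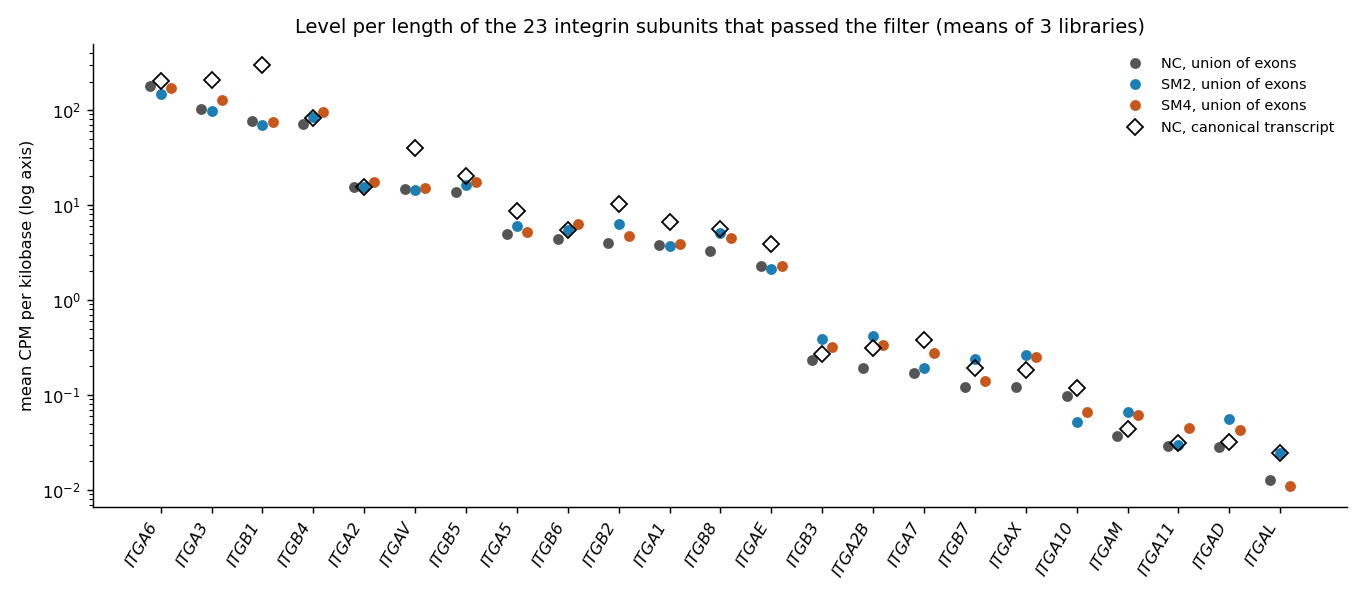
Mean CPM per kilobase (logarithmic axis) of the 23 integrin subunits tested, ordered by their level in NC; filled points use the union of annotated exons in each group and open diamonds the canonical transcript in NC. With annotated exons the subunits described here lead the order except ITGB8, which lies below ITGB2 (3.96) and ITGA1 (3.81). With the canonical transcript ITGB1 rises to the top and ITGB2 (10.3) exceeds ITGA5, ITGB6 and ITGB8.

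Of the 16 other integrin subunits, 13 were tested and ITGA4, ITGA8 and ITGA9 had at most 8 counts in a library. Of the 13, 5 rose in SM2, 4 rose in SM4 and 0 fell in either by edgeR, and DESeq2 gave the same 3 counts, where 12.0% and 11.0% of all tested genes were higher by edgeR. At an unadjusted p below 0.05, 1 was lower in SM2 (ITGA10, at -0.90 on the log2 scale, adjusted p 0.0939) and 0 were lower in SM4. Between SM4 and SM2, edgeR called 0 of the 13 higher in SM4 and 1 lower, against 6.04% and 6.76% of all genes. ITGB2, the beta chain of leukocyte integrins, was the most abundant of those that rose, at 28.7, 27.3 and 30.6 CPM in NC, 47.3, 44.8 and 44.7 in SM2, and 34.1, 33.8 and 34.7 in SM4. SM2 was above NC by 0.66 (SE 0.0565, adjusted p 3.54e-08) and SM4 by 0.24 (SE 0.0566, adjusted p 0.00341) on the log2 scale, and SM4 was lower than SM2 (-0.41, adjusted p 2.37e-05). The leukocyte marker PTPRC stayed below 0.08 CPM in every library.

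The other subunits that rose reached no more than 2.75 CPM in any library. ITGA2B and ITGAX rose in both comparisons, ITGA2B by 1.12 and 0.81 and ITGAX by 1.11 and 1.04 on the log2 scale. ITGB3, a further partner of ITGAV, rose by 0.71 in SM2 (adjusted p 0.00854) and had 0.44 (adjusted p 0.103) in SM4, at 1.60 ± 0.317, 2.62 ± 0.0456 and 2.18 ± 0.446 CPM, although 33.2% of its exon bases lie within another gene on the same strand. ITGB7 rose by 0.97 in SM2 (adjusted p 0.0229), with 42.3% of its exon bases opposite ZNF740, and ITGA7, a laminin receptor chain of muscle, rose by 0.72 in SM4 (adjusted p 0.00664). ITGA1 (65.4 to 76.4 CPM) and ITGAE (11.9 to 16.1 CPM) were not called, and neither were ITGA10, ITGA11, ITGAD, ITGAL and ITGAM, which stayed below 0.63 CPM.

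In the comparisons with NC, the RNA of the matrix proteins that these receptors bind fell more often than it rose. Of 26 ligand genes 23 were tested. In SM2 4 rose and 10 fell, where the median log2 fold change was -0.18, and for SM4 3 rose and 10 fell, with a median of -0.14. The share of all genes that fell was 10.3% and 10.2%. SM4 against SM2 had no such tilt, with 4 higher and 5 lower and a median of 0.005. There 6.04% of all genes were higher and 6.76% lower.

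LAMA3 and LAMB3, which encode chains of a laminin bound by ITGA3-ITGB1 and ITGA6-ITGB4, fell in both comparisons. LAMA3 was at 150.2, 142 and 138 CPM in NC, 75.3, 79.7 and 72.1 in SM2, and 99.7, 98.7 and 99.2 in SM4. The groups did not overlap. It fell by 0.92 (adjusted p 2.99e-11) and by 0.53 (adjusted p 4.56e-08) on the log2 scale, and SM4 against SM2 gave 0.39 (adjusted p 7.99e-06). LAMB3 fell by 0.18 and by 0.20. LAMB1, a chain of other laminins, fell by 0.80 (adjusted p 1.59e-10) and by 0.40 (adjusted p 1.81e-06), from 221 ± 6.31 CPM in NC to 127 ± 7.58 and 168 ± 2.18. LAMC1 also fell in both and LAMA4 in SM2. Other laminin genes did not fall. LAMA5, at 966, 910 and 1038 CPM, was not called against NC (-0.085 and 0.104), nor was LAMA1. LAMB2 rose in SM4 (0.151, adjusted p 0.0314) and was not called in SM2.

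Ligands of the ITGAV receptors also moved. CCN1, a matricellular integrin ligand, fell by 0.37 on the log2 scale in SM2 (adjusted p 5.89e-06) and, further, by 0.84 in SM4 (adjusted p 5.39e-11), from 103 ± 4.39 CPM to 80.1 ± 1.74 and 57.6 ± 1.06. CCN2 fell by 0.82 in SM4 (adjusted p 7.88e-07) and had -0.23 in SM2 (adjusted p 0.0696). TNC, THBS1 and TGFB1 fell in both comparisons, TGFB1 by 0.18 and by 0.29. MFGE8, an RGD protein, rose by 0.41 and 0.21. COL4A1, a chain of basement membrane collagen, had the largest fold in both, 1.26 on the log2 scale for SM2 (SE 0.187, adjusted p 4.31e-05) and 1.48 for SM4 (SE 0.184, adjusted p 4.35e-06), at no more than 2.87 CPM in any library. FN1 fell by 0.23 in SM2 (adjusted p 0.0036) and had -0.12 in SM4 (adjusted p 0.116).

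Of the 4 hemidesmosome genes that work beside ITGA6-ITGB4, COL17A1 was the 1 called, and it rose in both. With 22.3% and 21.2% of all genes called, 1 of 4 lies near the background. It was at 4.33, 4.38 and 4.65 CPM in NC, 6.00, 6.24 and 5.98 in SM2, and 5.92, 7.25 and 5.48 in SM4, and rose by 0.45 in SM2 (adjusted p 0.00837) and by 0.48 in SM4 (adjusted p 0.00434) on the log2 scale. DST, PLEC and CD151 were not called in either comparison. Between SM4 and SM2, 0 of the 4 were called, where 12.8% of all genes were.

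All 27 genes of the cytoplasmic adhesion complex were tested. SM2 had 5 that rose and 6 that fell (median -0.02 on the log2 scale), and SM4 had 3 that rose and 10 that fell (median -0.08). Of all tested genes 12.0% were higher and 10.3% lower in SM2, and 11.0% and 10.2% in SM4. Between SM4 and SM2, 1 was higher in SM4 and 5 were lower, against 6.04% and 6.76% of all genes. FERMT1 and FERMT2, the kindlins that bind beta tails and switch integrins on, fell in both: FERMT1 by 0.48 (adjusted p 4.28e-06) and by 0.40 (adjusted p 3.8e-05), FERMT2 by 0.43 and by 0.32. SRC, a kinase downstream of integrins, rose by 0.36 and 0.23, and PTK2, the focal adhesion kinase, rose by 0.30 in SM2 (adjusted p 2.95e-05). The talins TLN1 and TLN2 were not called.

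The tensins, which link beta tails to actin, went different ways. TNS1 rose by 0.81 (adjusted p 0.0013) and 0.72 (adjusted p 0.00344) at 1.86 to 4.37 CPM. TNS2 fell by 0.55 in SM2 (adjusted p 3.51e-05) and had -0.21 in SM4 (adjusted p 0.0603). TNS4 fell by 0.34 in SM4 (adjusted p 2.41e-05) and had -0.12 in SM2 (adjusted p 0.0787). LIMS2 had the largest fold in SM2 (2.34, SE 0.497, adjusted p 0.00154), but it stayed below 0.77 CPM.

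**Figure D5:**
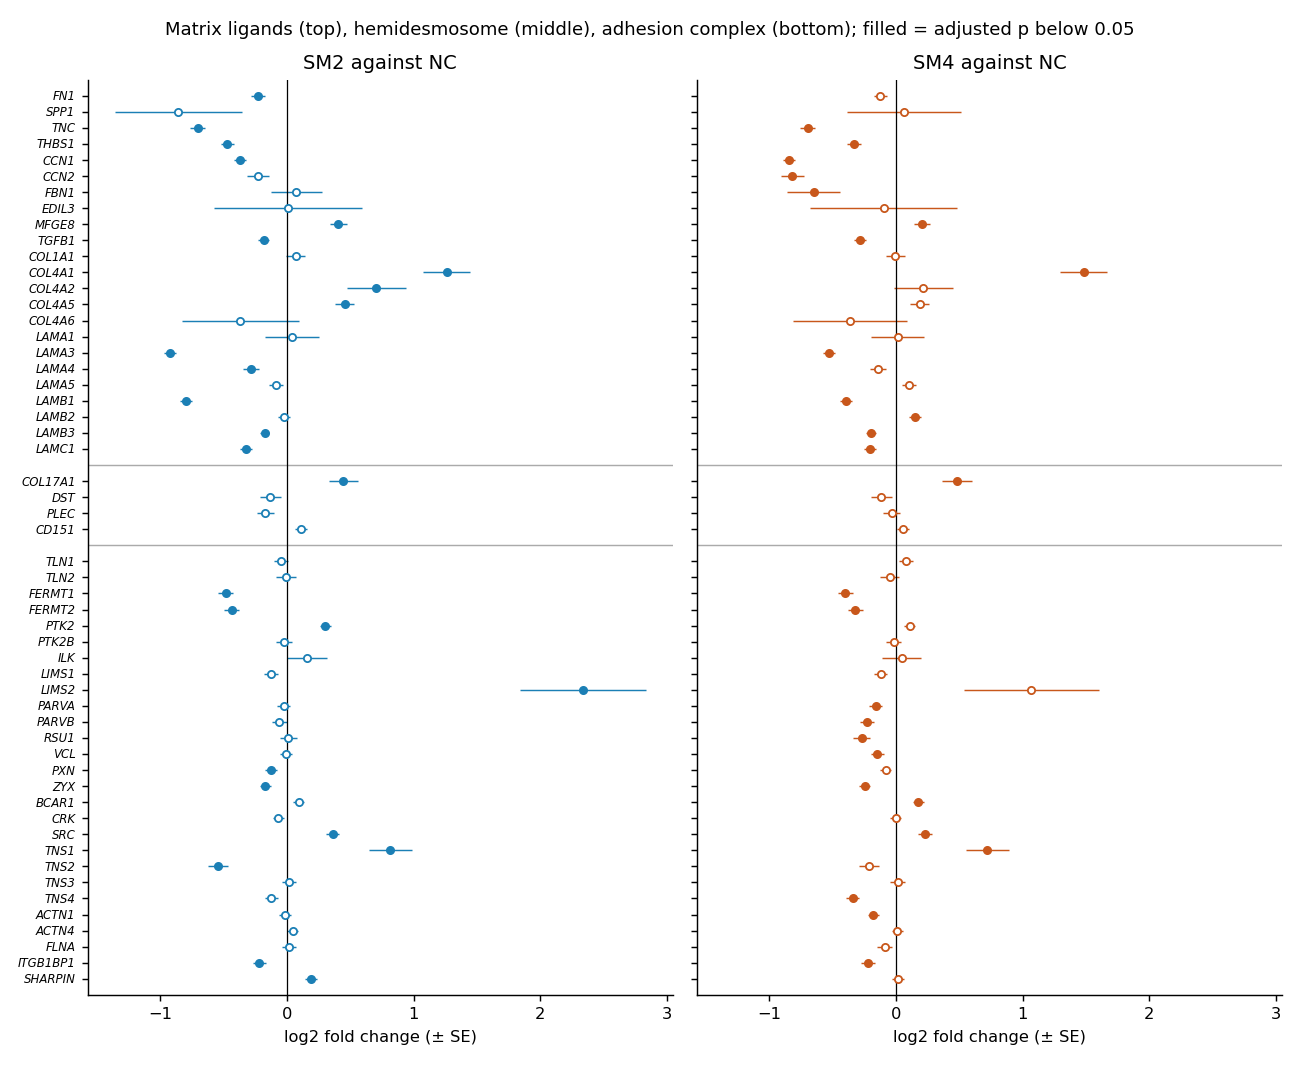
Log2 fold change with its SE for the tested matrix ligands, hemidesmosome genes and adhesion complex genes in SM2 against NC and in SM4 against NC, on the same horizontal scale; filled points have an adjusted p below 0.05. Among the ligands 10 fell in each comparison, LAMA3 and LAMB3 among them.

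The genes whose pattern was most like that of ITGB8 were IGF1R, SMARCA2, PTPRU, CHAF1B and ATP7B. Their Pearson correlations of log2 CPM over the 9 libraries were 0.992, 0.991, 0.989, 0.986 and 0.984, a description over libraries in 3 groups. IGF1R, for example, had means of 82.8, 114 and 104 CPM in NC, SM2 and SM4.

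Finally, the canonical transcripts were searched for GGACT, the most common form of the sequence in which METTL3 places m6A. ITGB5 held 2.03 copies per kilobase, ITGB4 1.87, ITGB6 1.72 and ITGA5 1.65, ITGA3 held 1.23, ITGB1 1.07 and ITGAV 0.852, and ITGA6 (0.516), ITGB8 (0.446) and ITGA2 (0.383) held fewest, against a median of 0.912 over 19626 transcripts. Of the 4 beta chains that were higher than NC in both comparisons, ITGB5, ITGB4 and ITGB6 headed this order and ITGB8 was the lowest but ITGA2. The methylation of these transcripts was not measured in these libraries.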

How the data were processed

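Poly(A) RNA of 9 OVCAR5 libraries was sequenced. The authors deposited raw counts per gene. The methods of the study name hisat2, hg38 and Subread, and the submitters' processing notes add fastp and featureCounts. Versions, gene annotation and strand setting are not given in the sources used here. The labels and the methods name different library kits and read layouts. Groups were taken from the library titles, and 0 columns were left unused.

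Of 60649 identifiers, 60463 matched GENCODE v44 (GRCh38) without their version. In R 4.3.3, filterByExpr of edgeR 4.0.16 kept 19674 genes. Counts were scaled by TMM and tested with the edgeR quasi-likelihood F test, with all 9 libraries and the group alone in the model. A gene was called at a Benjamini-Hochberg adjusted p below 0.05 over all tested genes. DESeq2 1.42.0 was an alternative. The script was tested on simulated counts. Pair ratios were tested with the exact permutation test of scipy 1.17.1. Levels between genes are CPM per kilobase of the union of annotated exons. The canonical transcript length was added after the data were seen. Counts carry no molecular identifiers.

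The named genes are the 10 subunits, METTL3, ADAM23, the other tested subunits, the 3 called genes with the largest change per list and comparison with NC, and the 5 genes most like the subunit that changed most. Further genes of the fixed lists (such as LAMB3, TNC, THBS1, TGFB1, MFGE8, FN1, the kindlins, talins, SRC and PTK2) were named after their values were seen. One gene of the ligand list is not reported here and was taken out of its counts after the data were seen. The members and lists were chosen with earlier results of these data known. Alternatives were other normalizations, filters and tests, a replicate block, removal of a gene length trend, a stricter threshold and leaving out each library.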

Additional observations from a re-analysis of the deposited data

Results flagged for a closer look

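The comparison of SM4 with SM2 tests whether the groups with these labels differ from each other, and 6 of the 10 subunits were called in it by the quasi-likelihood F test of edgeR (Benjamini-Hochberg adjusted over all tested genes). The log2 fold change of SM4 against SM2 was 0.36 for ITGA3 (adjusted p 1.02e-06), 0.19 for ITGA2 (adjusted p 0.0159), 0.19 for ITGA6 (adjusted p 0.00362) and 0.17 for ITGB4 (adjusted p 0.00647), all higher in SM4. It was -0.21 for ITGA5 (adjusted p 0.00721) and -0.18 for ITGB8 (adjusted p 0.0474), both lower in SM4. To 3 decimals the 6 values were 0.364, 0.191, 0.187, 0.173, -0.214 and -0.178. METTL3 itself was higher in SM4 than in SM2 by 0.63 (adjusted p 7.46e-08), and its part in these differences was not tested.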

How the results depend on the processing

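The 30 subunit values (10 subunits, 3 comparisons) were recomputed under 19 alternatives each. Of the 570 values, 524 kept their direction and side of the threshold, 31 lost the call, 8 gained it and 7 changed sign, and the sign changes were all in values that were not called. The number of called subunits, without each replicate in turn, was 6 to 7 in SM2 against NC, 6 in each case in SM4 against NC, and 3 to 7 in SM4 against SM2, where leaving out SM4 replicate 1 left 3 of the 6. The calls that were lost most often were ITGB1 in SM2 against NC (15 of 19, adjusted p 0.0541 to 0.233 where an alternative refitted the counts) and ITGB8 in SM4 against SM2 (12 of 19). ITGB6 in SM4 against SM2, not called at 0.20, was called under 7 alternatives. ITGAV in SM2 against NC was -0.021 and became 0.014 with the gene length trend removed, 0.013 with the replicate block as well, and -0.078 to 0.023 without single replicates, and ITGA1 was -0.019 and became 0.016, 0.017 and -0.072 to 0.039. Without single replicates the log2 values of uncalled results also crossed 0: ITGA2 in SM2 against NC -0.025 to 0.073, ITGA11 -0.119 to 0.245, and, in SM4 against NC, ITGA1 -0.016 to 0.099, ITGAE -0.014 to 0.086, ITGAL -0.827 to 0.287 and ITGB7 -0.008 to 0.463. In SM4 against SM2 they were ITGAM -0.363 to 0.162, ITGAX -0.18 to 0.113, COL17A1 -0.09 to 0.117, TNS1 -0.256 to 0.104, and the ratios ITGA6 to ITGB4 -0.009 to 0.044, ITGAV to ITGB1 -0.024 to 0.036 and ITGAV to ITGB5 -0.04 to 0.029. The cause was not tested. Replicate numbers are shared between groups, and the deviations of same-numbered libraries from their group means correlated weakly (r -0.053 to 0.0453). Among pairs with an NC library, r was 0.00728 to 0.0409 for same numbers and -0.0276 to 0.00856 for different numbers. The titles do not say whether same-numbered libraries were paired. With the replicate block 7 subunits were called in SM2 and 6 in SM4, each against NC, and 7 between SM4 and SM2. Intervals and low counts limit ITGAL, ITGAD and LIMS2 most.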
